A study of Mus musculus with 20 samples.

Results

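Accessible regions of the embryonic gut mesenchyme that were present in the intestine of both genotypes, absent from the control stomach and present in the *Eed*-null stomach are described here. They were chosen by merging the 4 deposited ATAC-seq peak lists, 1 for each of control intestine, *Eed*-null intestine, control stomach and *Eed*-null stomach, wherever peaks overlapped by at least 1 bp, and keeping the merged regions that held a peak from all lists but that of the control stomach. Of 162113 merged regions, 4131 (2.548%) were selected, and they are called member regions. The peaks themselves chose the members, so their presence and strength are a description without a test, and each peak list pools the 2 ATAC-seq samples of its condition, so no replicate error can be given for accessibility.

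The embryonic cells were GFP+ cells sorted at E13.5. The labels give the strain as C57BL/6, and the study's methods describe mixed backgrounds. Control embryos carried Bapx1-cre;Rosa26mTmG and *Eed*-null embryos (labelled KO) carried Eed fl/fl;Bapx1-cre;Rosa26mTmG, so both genotypes share the Cre driver and the reporter, and *Eed* was deleted only in cells with a history of *Bapx1* expression. Matching RNA-seq had 2 libraries for each of the 4 conditions. A separate set of 2 control libraries and 2 libraries labelled EED-KO came from GFP+ cells of the adult intestine, at about 10 weeks of age, with a tamoxifen-dependent Cre driven by *Pdgfrb*. Nothing in the sources used here says which libraries share embryos. The p-values rest on the spread between the 2 libraries within groups, estimated over all groups tested together.

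*Eed* encodes a core subunit of Polycomb repressive complex 2 (PRC2), which places methyl groups on lysine 27 of histone H3 and keeps many developmental genes silent. ATAC-seq marks open chromatin by where a transposase can cut, which includes gene starts, distal enhancers and sites bound by CTCF, a factor that organizes chromatin loops. Stomach and intestinal mesenchyme derive from a continuous layer of cells along the gut tube, and are distinguished by transcription factors such as *Barx1* in the stomach and *Nkx2-3* and *Hand1* in the intestine, and by *Hox* genes, whose later-numbered members mark posterior positions.

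The windows printed here stand beside genes or peaks described below. They are the 300 bp at the middle of 4 member regions, read 5′ to 3′ on the plus strand of GRCm38 (RefSeq GRCm38.p6, the build of the mm10 peak lists). They comprise the member regions beside the intestinal factor gene *Nkx2-3*, the signalling genes *Wnt5b* and *Bmp3*, and the member region with the highest -log10 q in the *Eed*-null stomach. Capitals mark matches to any of 15 motifs searched on both strands. The *Nkx2-3* window holds a TEAD match. The *Wnt5b* window holds a TEAD match and, overlapping each other, matches of nuclear receptors and of TCF and LEF factors. The *Bmp3* window holds GATA and CTCF matches, and the last an NKX2 and NKX3 match. None of the 4 windows overlaps an annotated exon.
Nkx2-3 region at chr19:43618740-43619039: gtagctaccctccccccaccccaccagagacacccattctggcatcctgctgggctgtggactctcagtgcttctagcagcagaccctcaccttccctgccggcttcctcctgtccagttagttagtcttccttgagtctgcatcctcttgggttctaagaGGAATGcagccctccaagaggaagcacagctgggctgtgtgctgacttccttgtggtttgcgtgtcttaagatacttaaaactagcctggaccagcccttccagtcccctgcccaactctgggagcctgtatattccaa
Wnt5b region at chr6:119438296-119438595: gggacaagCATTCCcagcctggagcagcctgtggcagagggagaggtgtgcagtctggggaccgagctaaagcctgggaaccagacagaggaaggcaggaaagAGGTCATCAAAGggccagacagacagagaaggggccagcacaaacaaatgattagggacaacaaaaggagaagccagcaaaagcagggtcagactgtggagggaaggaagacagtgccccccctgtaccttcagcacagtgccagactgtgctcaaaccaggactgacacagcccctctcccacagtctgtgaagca
Bmp3 region at chr5:98863918-98864217: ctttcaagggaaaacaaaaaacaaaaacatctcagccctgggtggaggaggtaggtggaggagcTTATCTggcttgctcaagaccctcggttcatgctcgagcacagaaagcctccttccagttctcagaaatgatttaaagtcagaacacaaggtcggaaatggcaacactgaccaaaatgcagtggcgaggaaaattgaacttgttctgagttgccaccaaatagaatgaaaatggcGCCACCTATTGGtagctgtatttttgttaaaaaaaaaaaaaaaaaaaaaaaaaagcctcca
Region with the highest -log10 q at chr4:88763117-88763416: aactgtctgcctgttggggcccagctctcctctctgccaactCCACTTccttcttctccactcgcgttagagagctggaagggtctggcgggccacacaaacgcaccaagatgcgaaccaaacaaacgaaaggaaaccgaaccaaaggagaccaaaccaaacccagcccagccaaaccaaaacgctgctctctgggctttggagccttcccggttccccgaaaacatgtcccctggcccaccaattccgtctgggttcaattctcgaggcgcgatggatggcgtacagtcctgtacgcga

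Among the ways a region can miss 1 list, absence from the control stomach was not the most frequent. A peak in all lists but control intestine was found for 7343 regions, in all but *Eed*-null stomach for 4735, and in all but *Eed*-null intestine for 3333. Peaks in all 4 lists were held by 74635 regions. Another 4383 regions had peaks in both intestine lists and in neither stomach list, so that of the regions open in both intestines and not called in the control stomach, the members and these were of similar number.

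**Figure D1:**
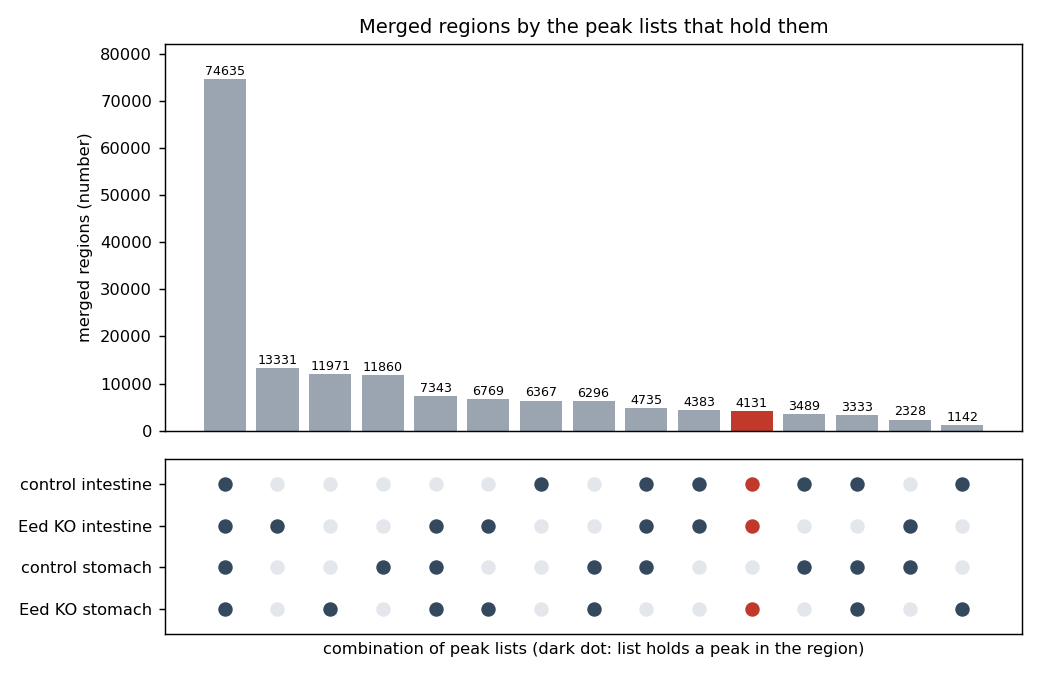
Number of merged regions (bars, linear axis from 0) for each combination of the 4 peak lists, with dots below showing which lists hold a peak. The 4131 member regions (red) are fewer than the 74635 regions with a peak in all 4 lists and similar in number to the 4383 regions found in the intestine lists alone.

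Members were mostly weak peaks, and so were the other regions that missed 1 list, with median folds of 2.909 to 3.335 in the lists that held them. Fold enrichment, the peak's signal over the local background of the peak caller MACS2, had a median of 2.963 in the control intestine (quartiles 2.666 and 3.456), 3.059 in the *Eed*-null intestine (2.708 and 3.673) and 2.988 in the *Eed*-null stomach (2.663 and 3.522). The highest values were 8.172, 10.45 and 10.35. Over all peaks of a list the median fold was 3.492 to 3.814. Median -log10 q, the significance given by the caller, was 2.684, 3.183 and 2.875 in that order. The weakest of the 3 peaks was under a -log10 q of 2 for 2087 members (50.52%), and all 3 peaks reached 5 for 306 members (7.407%).

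The choice therefore turned on peaks near the limit of the lists, whose lowest -log10 q lay between 1.001 and 1.013. Just inside, the weakest peak of the member at chr10:81534889-81535378 had a -log10 q of 1.015. Just outside, chr8:95596518-95597303 was kept out by a control stomach peak of 1.022. In all, 4767 of the regions with a peak in all 4 lists had a control stomach peak under 2.

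In the *Eed*-null stomach the peaks were not systematically stronger or weaker than in the intestine. Fold enrichment was above that of the control intestine in 2179 members (52.75%) and below it in 1951 (47.23%). For 3595 members (87.02%) the highest of the 3 folds was under 1.5 times the lowest. In 55 members both *Eed*-null folds were at least 1.5 times the control intestine fold, and in 23 the control intestine fold was at least 1.5 times both *Eed*-null folds.

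**Figure D2:**
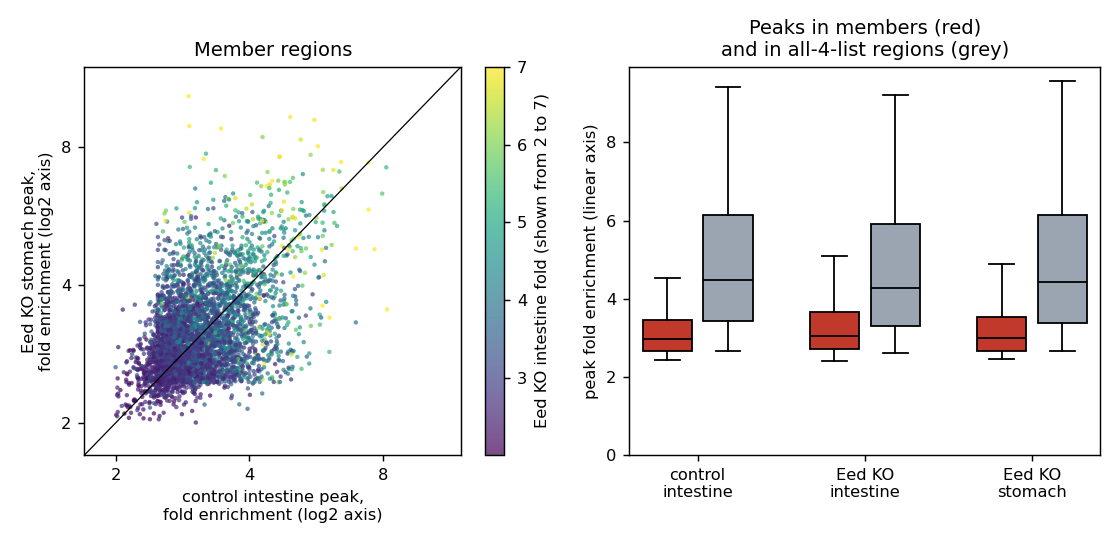
Left, fold enrichment of each member's control intestine peak (x axis) and *Eed*-null stomach peak (y axis), both on log2 axes, coloured by the *Eed*-null intestine fold, with the line of equality. Right, boxes (quartiles, median line, whiskers from the 5th to the 95th percentile) for members (red) and for regions with a peak in all 4 lists (grey), where members have medians near 3 and lie lower in each list.

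Of the 10 members with the highest -log10 q in the *Eed*-null stomach, 7 were intergenic, 3 lay in introns and 0 were within 1000 bp of a gene start. The first, chr4:88762607-88763927, lies 2488 bp from the nearest start (*Gm13283*) and had fold enrichments of 5.857 in the control intestine, 6.226 in the *Eed*-null intestine and 7.141 in the *Eed*-null stomach. In 3 of the 10 both *Eed*-null folds were at least 2 times the control intestine fold. The intergenic region chr7:48131452-48132592, 36427 bp from *Mrgprb5*, had 2.919 in the control intestine against 10.45 and 10.35 in the *Eed*-null intestine and stomach. The region chr16:36769922-36770885 in an intron of *Slc15a2* had 2.932 against 8.8 and 8.897. The intergenic region chr3:57136731-57137256 had 3.456 against 8.835 and 8.79. These 3 regions were weak in the control intestine and strong in both *Eed*-null organs, a pattern seen in 8 members in all.

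Members lay away from gene starts. Within 1000 bp of a protein-coding or long non-coding transcript start (GENCODE vM21) were 167 members, or 4.043% (95% exact binomial interval from 3.463% to 4.689%, counting error only), compared with 12.18% of all merged regions and 22.77% of those with a peak in all 4 lists. The other regions that missed a single list were like the members in this, with 4.412% for control intestine, 2.513% for *Eed*-null stomach and 3.42% for *Eed*-null intestine. The median distance of a member to a start was 23940 bp. The middle of the member was intronic for 51.95%, intergenic for 42.68%, exonic outside untranslated regions for 3.147% and in an untranslated region for 2.227%. Median width was 619 bp, and the nearest control stomach peak was a median of 4683 bp away.

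**Figure D3:**
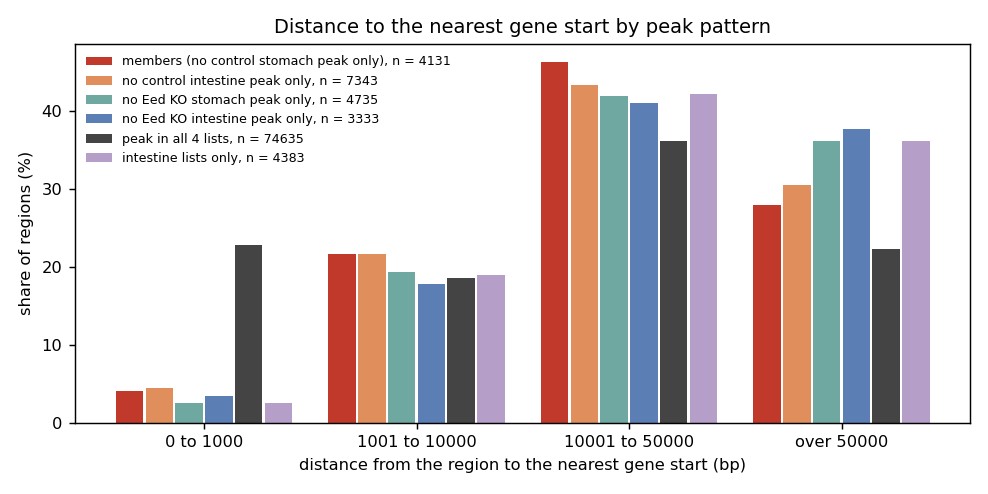
Share of regions (y axis, %) by distance to the nearest gene start (x axis, bp) for 6 combinations of peak lists. Members (red) have 4.043% within 1000 bp, near the other combinations that miss 1 list, whereas regions with a peak in all 4 lists (dark) have 22.77%.

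Members were spread over the genome, from 1.526% of merged regions on chromosome X to 3.115% on chromosome 13. There were 121 loci with 3 or more members within 100000 bp, which together held 376 members. The densest, chr13:107776154-107862004, held 5 members around *Zswim6*. Loci with 4 members included chr2:168796055-168849698 beside *Sall4*, a zinc finger transcription factor gene, with *Eed*-null stomach folds from 2.458 to 2.839, and chr2:168561642-168657223 at *Nfatc2*, a calcium-responsive transcription factor gene, with 2.09 to 2.622. *Foxp1*, *Mical2*, *Myt1l* and *Nol4l* were each the nearest gene of 4 members.

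Base composition did not set the members apart, with a median GC content of 48.67% in the 300 bp windows against 48.67% over all merged regions, and a median of 8.667% against 8% of bases masked as repeats. The motif of CDX and posterior HOX factors (CCATAAA, found in either orientation) was in 5.689% of member windows, 4.299% of all merged windows and 6.867% of windows open in the intestine lists alone. The related posterior HOX motif CAATAAA was in 5.689% of members against 4.787% of all merged windows. The GATA motif AGATAA was in 16.12% of members and in 14.14% of all windows. The NKX2 and NKX3 motif AAGTGG, that of gut mesenchyme homeobox factors, was in 18.2% and 16.9% in the same order.

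The remaining motifs differed from all merged windows in either direction. The E-box CATCTG read by HAND factors was in 25.9% of members and 25.75% of all windows. The TEAD motif CATTCC, read by partners of YAP, was in 20.14% and 20.52%. The MEIS motif TGACAG was in 21.52% of members and 22.9% of all windows, and the motif TGATTNAT of PBX and HOX pairs in 4.599% and 4.758%. The SOX motif AACAAAG was in 7.19% and 7.098%, and the FOX motif TGTTTAC was in 5.374% of members and 5.32% of all windows. The AP-1 motif TGANTCA was in 9.973% and 9.945%, and the GLI motif, which reads Hedgehog signals and was searched as GACCACCCA, in 0.2905% and 0.3491%. The TCF and LEF motif CTTTGAT was in 5.059% of members against 4.145% of all windows, and the nuclear receptor motif AGGTCA in 17.96% against 16.05%. Shares are a description, and a match is not evidence of binding.

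The CTCF motif differed more between the combinations of lists. It was in 5.326% of member windows and in 6.033% of windows that missed only the control intestine, but in 2.154% of those that missed only the *Eed*-null stomach and 2.49% of those that missed only the *Eed*-null intestine. It was in 5.781% of windows with a peak in all 4 lists, and in 2.396% of windows open in the intestine lists alone. The 2 combinations that lack a control list therefore had shares near that of regions in all lists, and the 2 that lack an *Eed*-null list had lower shares. Each list is a single pooled sample, so these differences have no replicate check. With peaks of -log10 q of 5 or more, members were at 6.468%, below the 6.939% of all merged windows and the 8.331% of those in all lists, and regions that missed only the control intestine were at 10.88%.

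**Figure D4:**
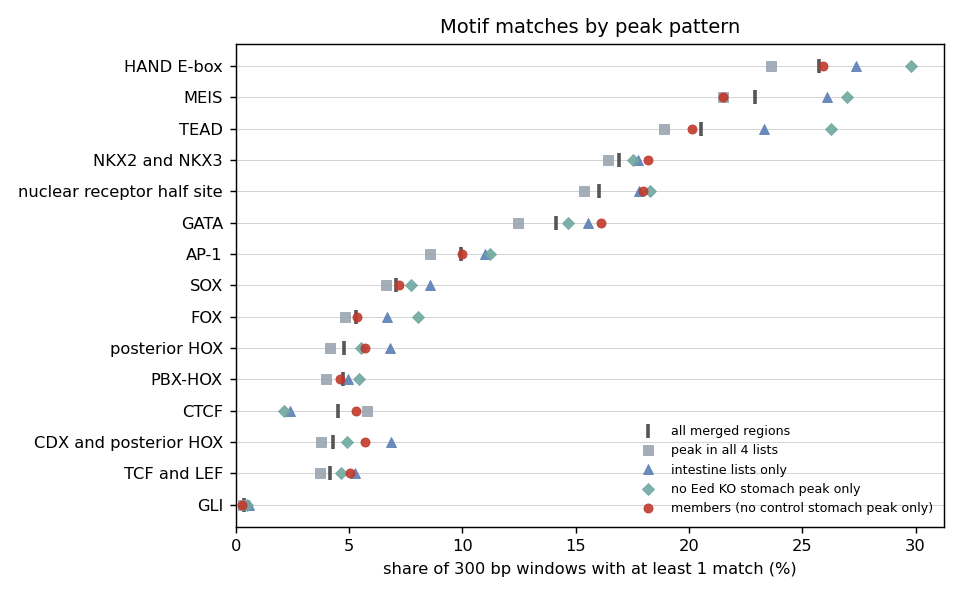
Share of 300 bp windows with at least 1 match (x axis, %, from 0) for each of 15 motifs (y axis), with members in red. Members lie above all merged regions for the CDX and posterior HOX motif (5.689% and 4.299%), and for CTCF the members (5.326%) lie apart from regions that lack only the *Eed*-null stomach peak (2.154%).

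The RNA of the same conditions is a measure that the choice of regions did not use. Embryonic libraries had 30236159 to 39606157 counts on genes, and a count of 0 allows up to 0.0757 to 0.0992 CPM (counts scaled by TMM to a common library size). *Eed*, the deleted gene, was at 38.1 and 40.15 CPM in the control intestine, 40.1 and 41.5 in the control stomach, 10.7 and 8.59 in the *Eed*-null intestine and 11.45 and 7.405 in the *Eed*-null stomach. Both *Eed*-null organs lay below both controls, with a log2 change of -2.11 in the stomach (standard error, SE, 0.208; edgeR adjusted p = 0.00175). The mesenchymal factor *Foxf1* was at 226.7 to 379.2 CPM in all 8 libraries. *Barx1* separated the control organs, with 626.6 and 557.3 CPM in the stomach against 0.534 and 1.48 CPM in the intestine.

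Marker RNA of some other cell types differed between the groups. The summed level of 12 endothelial marker genes was 24.1 to 28.8 CPM in the 4 control libraries and 44.3 to 69.8 CPM in the 4 *Eed*-null libraries. Of the 12, 7 passed the test as higher in the *Eed*-null stomach, where 4.84% of all genes did. The sum of 10 mesothelial markers was 947.6 to 1173 CPM in the controls and 744.5 to 855 CPM in the *Eed*-null libraries. That of 12 enteric neural crest markers was 213 and 226.1 CPM in the control intestine and 112.8 and 179.3 CPM in the *Eed*-null intestine. It was 66.2 and 81.2 CPM in the control stomach and 74.4 and 85.2 CPM in the *Eed*-null stomach. The sum of 12 blood and macrophage markers was 2.17 to 9.02 CPM in all 8. In bulk samples more cells of a type and more RNA per cell cannot be told apart, and the part of these cell types in the differences below was not tested.

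Members lay at the start of 177 genes, 130 of which have a row in the count tables, and 59 had enough reads to be tested. Differences were tested by edgeR (quasi-likelihood) over all 16218 genes of the 8 embryonic libraries, and a call needed an adjusted p below 0.05 with a log2 change over 1 in size. In the *Eed*-null against the control stomach 5 of the 59 (8.475%) were higher, where 4.84% of all genes tested were, and 0 were lower, where 0.808% of all genes were. At an unadjusted p under 0.05, 18 were higher and 1 was lower. The share over all genes was not taken at this threshold, so these counts show nothing particular to the members. DESeq2 called 8 higher, where it called 5.562% of all genes, and 0 lower, where it called 1.011%. The median log2 change was 0.516 over the 59 and 0.00 over all genes. Of all calls in this comparison 85.7% were higher, and 67.01% with a factor estimated from the spike-in RNAs, under which 1 of the 5 genes (*Slc17a7*) was called. *Slc17a7*, *Slc25a21* and *Hoxc12* had at most 0.253 CPM in any embryonic control library. They passed the low-count filter through *Eed*-null libraries alone, so that they could be tested only because they differed. The 5 genes encode 2 transporters, a phospholipid-binding protein, a HOX factor and an interferon-induced protein.

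*Anxa1* encodes annexin A1, a phospholipid-binding protein known for limiting inflammation. The member region chr19:20389822-20390916 covers its start, with folds of 2.889 in the control intestine, 2.842 in the *Eed*-null intestine and 3.727 in the *Eed*-null stomach. Its RNA was at 14.7 and 14.98 CPM in the control intestine, 22.9 and 22.7 in the *Eed*-null intestine, 2.06 and 3.11 in the control stomach and 4.86 and 5.81 in the *Eed*-null stomach. Both control stomach libraries lay below all others, and the *Eed*-null stomach stayed below both intestines. The log2 change was 1.04 for the *Eed*-null against the control stomach (SE 0.205, adjusted p = 0.0239) and 2.51 for the control intestine against the control stomach (SE 0.205, adjusted p = 0.0007), both by edgeR, and these comparisons share the control stomach libraries. The difference of the *Eed*-null effect between the organs was 0.42 (edgeR adjusted p = 1). The stomach call was lost without *Eed*-null stomach replicate 2 (0.90), control stomach replicate 1 (0.77) or control intestine replicate 2 (adjusted p = 0.05 as rounded, edgeR), and with the spike-in factor (0.83). The member also lies in the non-coding gene *1500015L24Rik*, which overlaps *Anxa1*.

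*Samd9l*, an interferon-induced gene, has the member chr6:3399401-3399795 at its start, with a CTCF match in its window. Its RNA was at 0.406 and 0.459 CPM in the control stomach, 0.993 and 2.17 in the *Eed*-null stomach, 1.124 and 1.211 in the control intestine, with 1.58 and 2.43 in its *Eed*-null counterpart. The control stomach was lowest and the *Eed*-null stomach did not overlap it, with a log2 change of 1.86 (SE 0.449, edgeR adjusted p = 0.0481). The call was lost without any 1 of 5 libraries, and without *Eed*-null stomach replicate 2 the value was 1.19.

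*Slc17a7* encodes a vesicular glutamate transporter, and the member chr7:45163821-45164157 covers its start. Levels were 0.203 and 0.153 CPM in the control stomach, 1.93 and 1.59 in the *Eed*-null stomach, 0.253 and 0.135 in the control intestine, with 0.792 and 1.08 in its *Eed*-null counterpart. *Slc25a21*, a mitochondrial carrier gene, has the member chr12:57157869-57158478 at 766 bp from a start, and was at 0.029 and 0.153 CPM in the control stomach and 1.48 and 1.40 in the *Eed*-null stomach. Both genes were low in the controls of both organs and higher in the *Eed*-null of both organs. In the stomach the log2 changes were 3.29 (SE 0.40, adjusted p = 0.00386) for *Slc17a7* and 3.88 (SE 0.536, adjusted p = 0.00642) for *Slc25a21* by edgeR.

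*Hoxc12* encodes a posterior HOX transcription factor and is covered at its start by the member chr15:102936702-102937541, whose middle is in an exon. No count was found in the 4 control libraries. The *Eed*-null stomach had 0.751 and 2.33 CPM, at least 37.7-fold higher than the control stomach (against 3 counts over the group), and the *Eed*-null intestine had 0.106 and 0.371 CPM. The stomach difference passed the test (edgeR adjusted p = 0.0304), which the gene entered only through *Eed*-null libraries. The control intestine gave no reads although its peak list holds a peak there.

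The RNA differed between the control organs for other genes of the 59. Higher in the control intestine were 7 (11.86%, where 1.68% of all genes tested were), and lower were 3 (5.085%, where 3.39% were). Leaving out any control library gave fewer calls in both directions, among the 59 and over all genes. The 7 were *Anxa1*, *Tmem204*, *Ptpre*, *Soga3*, *Marc1*, *Ccl7* and *1300017J02Rik*, and the 3 were *Cdh26*, *Ttc22* and *Rmst*. *Marc1*, *Ccl7* and *1300017J02Rik* had at most 0.0765 CPM in the control stomach libraries, and *Rmst* at most 0.0562 CPM in those of the control intestine. These passed the low-count filter only through libraries of groups where they were higher, which limits the reading of both shares. *Tmem204*, which encodes a cell membrane protein, was at 15.7 and 16.8 CPM in the control intestine, 5.304 and 5.201 in the control stomach and 3.89 and 3.57 in the *Eed*-null stomach. *Ptpre*, a protein tyrosine phosphatase gene, was at 4.271 and 3.803, 1.57 and 1.40, and 1.13 and 1.65 CPM in the same order. The *Eed*-null stomach was below the control stomach for *Tmem204* and overlapped it for *Ptpre*, with log2 changes of -0.49 (adjusted p = 0.0715) and -0.10 (adjusted p = 0.859) by edgeR. *Soga3* was at 1.45 and 1.86 CPM in the control stomach and 3.03 and 3.84 in the *Eed*-null stomach, which did not overlap but did not pass the test (edgeR adjusted p = 0.114).

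In the *Eed*-null against the control intestine, where the members were open in both, 2 of the 59 were higher (3.39%, where 2.38% of all genes were) and 0 were lower (0.228% of all genes). The 2 were *Slc17a7* and *Slc25a21*, neither called with the spike-in factor, which lowered the share of higher calls from 91.25% to 74.89%. Both genes entered the test through *Eed*-null libraries alone. At an unadjusted p under 0.05, 13 were higher and 2 lower, again without a share over all genes to read them against. DESeq2 called 6 higher, where it called 3.872% of all genes, and 0 lower, where it called 0.3515%. The difference of the *Eed*-null effect between stomach and intestine, called at an adjusted p under 0.2, was passed by 0 of the 59 in either direction, where 0.271% of all genes were called larger and 0.191% smaller in the stomach. At an unadjusted p under 0.05, 3 were larger and 4 smaller, without a share over all genes to read them against. DESeq2 called 0 of each, where it called 0.6659% of all genes larger and 0.6104% smaller.

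**Figure D5:**
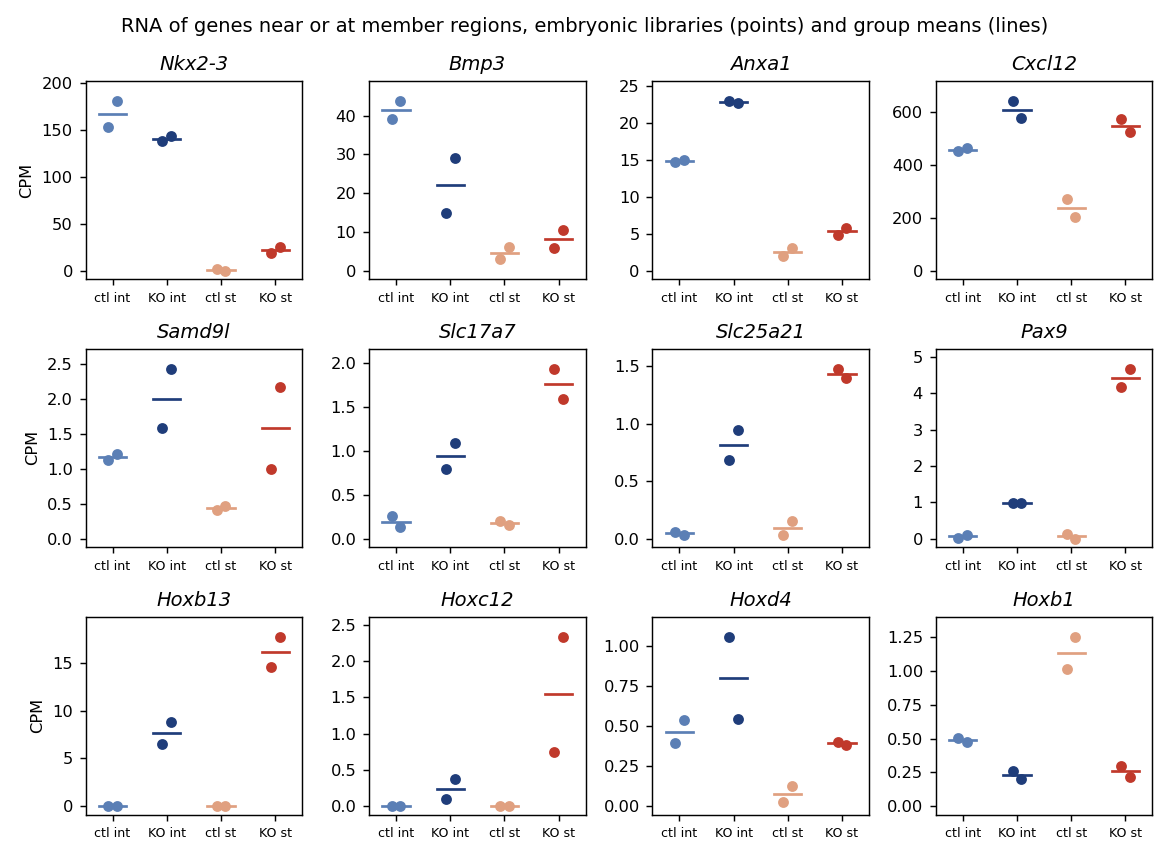
RNA level (y axes, CPM, linear) of 12 genes at or near member regions in each of the 8 embryonic libraries (points), with group means (lines), for control (ctl) and *Eed*-null intestine (int) and stomach (st). *Nkx2-3* and *Anxa1* are high in the intestine and intermediate in the *Eed*-null stomach, and *Hoxb13* and *Hoxc12* have no counts in the controls.

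Members near developmental regulators were few. Of the 2978 members within 50000 bp of a start, which were 2.573% of the 115736 merged regions within that distance, 4 had a *Hox* gene as the nearest (4.04% of 99 merged regions), 4 a gut mesenchyme organ factor (1.562% of 256), 4 a developmental transcription factor known to be silenced by PRC2 (1.14% of 351), 16 a secreted signalling ligand or antagonist (3.175% of 504) and 0 a cell cycle inhibitor of the Cdkn family (of 13). In the RNA of the *Eed*-null stomach 4.84% of all genes were higher and 0.808% lower. Of 39 *Hox* genes tested 19 rose and 6 fell, and of 34 organ factors 9 rose and 0 fell. Of 50 PRC2-silenced factors tested 43 rose and 0 fell. Their full list of 59 had 22 to 28 genes at 0 counts in each control library, and 2 to 4 in each *Eed*-null library. A factor without reads in the controls could enter the test only by being higher, which limits the reading of this share. Of 72 ligands and antagonists 8 rose and 5 fell, and of 7 Cdkn genes 4 rose and 0 fell.

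*Nkx2-3*, a homeobox factor of the intestinal mesenchyme, had the member chr19:43618501-43619278 at 6176 bp from its start, downstream and intergenic. Its fold enrichment was 4.307 in the control intestine, 3.744 in the *Eed*-null intestine and 2.877 in the *Eed*-null stomach. RNA was at 153.2 and 180.1 CPM in the control intestine, 137.5 and 142.9 in the *Eed*-null intestine, 2.06 and 0.204 in the control stomach and 18.6 and 25.3 in the *Eed*-null stomach. The *Eed*-null stomach lay between the control stomach and the intestine, without overlap with either. By edgeR the log2 change was 4.32 (SE 0.627, adjusted p = 0.00806) for the *Eed*-null against the control stomach and -0.25 (adjusted p = 0.925) in the intestine, and the difference of the effects was 4.57 (SE 0.789, adjusted p = 0.122).

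*Hoxb13*, the last *Hox* gene of its cluster, was the nearest gene of the intergenic member chr11:96198738-96200435, at 4422 bp from its start. *Hoxb13* had no counts in the 4 control libraries, 6.49 and 8.84 CPM in the *Eed*-null intestine and 14.5 and 17.7 CPM in the *Eed*-null stomach. These are at least 166-fold and at least 396-fold above the controls of the same organ (against 3 counts over the group). The edgeR adjusted p was 0.0022 and 0.000568, but *Hoxb13* entered the test only through *Eed*-null libraries. The control intestine had no *Hoxb13* RNA, and its peak in this distant member was weak, with a -log10 q of 1.472. At *Hoxc12*, where the member covers the start, the control intestine peak had a -log10 q of 2.785.

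*Hoxd4* and *Hoxb1* are anterior *Hox* genes. The member chr2:74721033-74722258 overlaps a start of *Hoxd4* within introns of *Hoxd3* and *Hoxd4*, with folds of 3.063, 3.56 and 4.105 for control intestine, *Eed*-null intestine and *Eed*-null stomach. *Hoxd4* was at 0.029 and 0.128 CPM in the control stomach, 0.402 and 0.384 in the *Eed*-null stomach, and 0.393 and 0.538 in the control intestine. The *Eed*-null stomach was level with the control intestine, but neither difference passed the test (adjusted p = 0.0939 and edgeR adjusted p = 0.0783). *Hoxb1*, with the member chr11:96404243-96404612 at 38491 bp, fell in the *Eed*-null stomach, from 1.01 and 1.25 CPM to 0.295 and 0.219 CPM (log2 change -2.12, edgeR adjusted p = 0.0133).

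Of the other transcription factor genes, *Pax9* had the member chr12:56717934-56718969 at 22295 bp, in an intron of *Slc25a21*. It rose in the *Eed*-null stomach from 0.116 and 0 CPM to 4.16 and 4.66 CPM (log2 change 6.25, edgeR adjusted p = 0.0024). In the *Eed*-null intestine it rose from 0.0281 and 0.101 to 0.976 and 0.970 CPM. *Pax9* entered the test only through *Eed*-null libraries. *Pax7*, with the member chr4:139836114-139836527 at 2586 bp, was not tested, with at most 0.247 CPM in any library. *Zfhx4*, expressed in all 8 libraries, had a log2 change of 0.92 (edgeR adjusted p = 0.145) in the *Eed*-null stomach, which was -0.24 with the spike-in factor.

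Among the ligands, *Cxcl12*, a chemokine gene, had the member chr6:117175394-117176697 in an intron, with folds of 2.539, 2.682 and 3.165. Its RNA was at 272.3 and 205 CPM in the control stomach, 573.3 and 525.7 in the *Eed*-null stomach, 451.9 and 465.1 in the control intestine, with 641 and 578.6 in its *Eed*-null counterpart. The control stomach was lowest and the *Eed*-null stomach lay above the control intestine, with a log2 change of 1.20 (SE 0.144, edgeR adjusted p = 0.00368).

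*Bmp3*, a member of the BMP family, had the member chr5:98863807-98864329 in an intron, with a CTCF match in its window and folds of 2.706, 3.224 and 4.185. Its RNA was at 39.1 and 43.7 CPM in the control intestine, 14.9 and 29.2 in the *Eed*-null intestine, 2.99 and 6.09 in the control stomach and 5.90 and 10.4 in the *Eed*-null stomach. The intestine was higher than the stomach (log2 change 3.18, edgeR adjusted p = 0.00659), and the 2 stomach groups overlapped (log2 change 0.84, edgeR adjusted p = 0.313), where the value was -0.58 with the spike-in factor.

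*Wnt5b*, a WNT ligand gene, had 2 members in introns, chr6:119472258-119472609 and chr6:119438191-119438700, with *Eed*-null stomach folds of 4.483 and 4.121. Its RNA was at 45.2 and 40.9 CPM in the control stomach and 46.7 and 46.6 in the *Eed*-null stomach (log2 change 0.12, edgeR adjusted p = 0.599), against 23.0 and 25.4 CPM in the control intestine. The control intestine lay below the control stomach (log2 change -0.83, edgeR adjusted p = 0.00656), whose list has no peak at these sites. *Igf1* likewise was at 694 and 631.7 CPM in the control stomach against 202.6 and 205.8 in the control intestine, with a member at 12709 bp (log2 change -1.70 for the intestine, edgeR adjusted p = 0.000338).

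*Rspo1*, which encodes an enhancer of WNT signalling, fell from 50.7 and 65.9 CPM in the control stomach to 29.6 and 26.1 in the *Eed*-null stomach (log2 change -1.07, edgeR adjusted p = 0.0177). *Pdgfa*, a growth factor gene, was at 31.0 and 31.8 CPM in the control stomach and 22.0 and 19.3 in the *Eed*-null stomach, with a log2 change of -0.60 (edgeR adjusted p = 0.0213) that did not reach 1 in size. *Kitl*, *Vegfc*, *Sfrp5* and *Shh* had log2 changes of -0.14, -0.20, 1.66 and 2.36 in the *Eed*-null stomach, with adjusted p between 0.0533 and 0.647 by edgeR. DESeq2 called *Shh* (adjusted p = 0.047). Genes nearest to members thus included some that rose, some that fell and some without a call.

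Because the members hung on weak peaks, the same rule was applied to peaks that reached a -log10 q of 5. It gave 2582 regions, of which 306 overlapped members of the full lists and 2276 (88.15%) had a control stomach peak of lower -log10 q that the threshold removed. They were at the start of 228 genes, of which 112 were tested. In the *Eed*-null stomach 27 of the 112 (24.11%) were higher, where 4.84% of all genes were, and 3 were lower. The difference of the effects was called larger in the stomach for 8 of 112 (7.143%), where 0.271% of all genes were, and smaller for 1. The 8 were *Hoxa13*, *Hoxd8*, *Hoxd11*, *Hoxd12*, *Nkx2-3*, *Fam155a*, *Gm53* and *Sgpp2*, and the 1 was *Cldn15*. A gene with reads in 1 group alone could pass the low-count filter only by differing.

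The *Nkx2-3* start itself was in this stricter set, at chr19:43611993-43613070, with folds of 6.506 in the control intestine, 5.698 in the *Eed*-null intestine and 3.606 in the *Eed*-null stomach, over a control stomach peak of 2.735 with a -log10 q of 4.752. The start of *Hoxa13*, a factor of the hindgut, was covered by chr6:52259175-52262078, with folds of 3.309, 2.736 and 2.756 and a control stomach peak of 2.609. *Hoxa13* RNA had 0 counts in both control stomach libraries and was at 20.1 and 29.6 CPM in the *Eed*-null stomach, 5.51 and 8.21 in the control intestine, with 16.3 and 15.6 in its *Eed*-null counterpart. The *Eed*-null stomach lay above the control intestine and at least 608.5-fold over the control stomach (against 3 counts over the group).

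*Hoxd12* and *Hoxd11*, with regions chr2:74672796-74676921 and chr2:74679070-74683600, likewise had no counts in the control stomach. *Hoxd11* was at 1.23 and 1.29 CPM in the *Eed*-null stomach, at least 31.0-fold above the control stomach, and 10.7 and 7.34 CPM in the control intestine. *Hoxd12* was at 1.37 and 1.92 CPM in the *Eed*-null stomach, at least 40.3-fold above, and 3.29 and 3.97 CPM in the control intestine. *Hoxd8*, at chr2:74703852-74706118, rose from 2.435 and 2.575 CPM in the control stomach to 16.4 and 14.1 in the *Eed*-null stomach, above the 12.61 and 13.02 CPM of the control intestine (log2 change 2.61, SE 0.137, edgeR adjusted p = 0.000164). *Hoxd8* and *Hoxa13* RNA in the *Eed*-null stomach lay above the control intestine, and that of *Hoxd11* and *Hoxd12* below it. At all 5 starts the control stomach list held a peak with a -log10 q under 5, so that none of these is a member by the full lists. By fold enrichment that peak was not always the lowest. At *Hoxd11* it was 2.936, against 2.724 in the control intestine, 2.542 in the *Eed*-null intestine and 2.67 in the *Eed*-null stomach. At *Hoxd12* it was 2.872, against 2.807, 3.4 and 2.823 in the same order.

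In the adult intestine *Eed* was at 29.7 and 33.4 CPM in the control and 25.7 and 25.1 CPM in the libraries labelled EED-KO (log2 change -0.32, edgeR adjusted p = 0.317), so that a loss of its RNA did not pass the test and the label is used as given. Of the genes with a member at the start 53 were tested. Higher in the EED-KO libraries were 19 (35.85%), where 12.3% of all 15039 genes tested were, and 5 (9.434%) were lower, where 7.23% were. Among the higher, *Ctla2b* was at 0.439 and 0.631 CPM in the control and *Kif1a* at 0.0732 and 0.420 CPM. These 2 passed the low-count filter only through the EED-KO libraries. *Slc25a34*, among the lower, passed it only through the control libraries, which limits the reading of both shares. The 19 included *Laptm5*, *Cytip*, *Arhgap25* and *Sla*, genes known from leukocytes. *Laptm5* was at 33.15 and 45.6 CPM in the control and 643.7 and 555 in the EED-KO libraries. The summed level of 12 blood and macrophage markers moved in the same direction, from 209.9 and 368.7 CPM in the control to 8336 and 8407 CPM in the libraries labelled EED-KO, and its part in these counts was not tested. The sum of 9 pancreas markers was 62.9 and 33.4 CPM in the control and 33.0 and 1700 CPM in the EED-KO libraries, of which 1 thus stood apart. *Nkx2-3* was at 295.4 and 290.8 CPM in the control and 113.4 and 115.7 in the EED-KO libraries (log2 change -1.36, edgeR adjusted p = 0.00274). *Samd9l* was at 57.7 and 41.5 CPM in the control and 23.58 and 15 in the EED-KO libraries (log2 change -1.37, edgeR adjusted p = 0.0167), and *Anxa1* at 933.3 and 797.3 against 417.8 and 516.6 CPM (log2 change -0.89, edgeR adjusted p = 0.0221). Each of these changes is opposite in sign to the embryonic stomach. In the embryonic intestine *Nkx2-3* changed by -0.25, *Samd9l* by 0.78 and *Anxa1* by 0.62, without a call. Of 10 general mesenchyme genes tested in the adult, 5 were lower and 0 higher in the EED-KO libraries, with a median log2 change of -1.092. Their part in these changes was not tested.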

How the data were processed

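ATAC-seq peaks and RNA-seq gene counts were analysed as deposited. Per the submitters' processing notes, reads were handled with Trimmomatic 0.32, BWA 0.7.8 and MACS2 2.1.2 for ATAC-seq, and STAR 2.5.1b and featureCounts (1.5.0 and 2.5.0 are both listed) for RNA-seq, on mm10. The authors pooled the 2 ATAC-seq samples of each condition before calling peaks, and the deposited peak lists give a fold enrichment over background and a -log10 q for each peak. The study's methods state a q cutoff, equal to a -log10 q of 2, and autosomal reads. The lists hold weaker peaks, and 2087 members (50.52%) rest on at least 1 of them, and they hold peaks on chromosome X (40 members). Reads per peak were not analysed here. The deposited RNA tables hold raw counts for 43280 genes and 99 spike-in transcripts. Embryonic libraries were stranded, and adult libraries were counted without strand, so overlapping antisense genes cannot be told apart there.

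Peaks were merged with bedtools 2.31.1. Gene starts came from GENCODE vM21 and sequence from GRCm38.p6. Counts were filtered and TMM-scaled, and tested with edgeR 4.0.16 (quasi-likelihood, Benjamini-Hochberg adjustment over all genes), with the 8 embryonic libraries in 1 fit and the 4 adult libraries in another. Of all genes 16218 and 15039 were tested. Adult libraries had 11404712 to 15903642 counts on genes and a biological coefficient of variation of 29.1%, against 15.8% in the embryo. With 2 libraries against 2 an exact permutation test cannot go below p = 0.333, so none is given. On simulated counts with 200 genes changed by a log2 of 2, the fit recovered 193 for the stomach and 125 for the adult comparison.

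Named regions were the 10 with the highest -log10 q in the *Eed*-null stomach, those at starts of genes called in the *Eed*-null stomach, up to 20 nearest to a listed regulator or ligand, and loci of 3 or more members. *Tmem204*, *Ptpre*, *Soga3*, *Laptm5*, *Ctla2b*, *Kif1a*, *Slc25a34*, *Hoxa13*, *Hoxd8*, *Hoxd11* and *Hoxd12* were named after their values were seen. The members and gene lists were chosen with earlier results of these data known. Alternatives were DESeq2 1.42.0, its size factors, no count filter, a replicate block, a spike-in factor, each library left out, stricter peaks, a merging gap of 250 bp and a start window of 5000 bp. Assignment to the nearest gene within 50000 bp was chosen after seeing the data. A listed factor gene and the sequence window of a region are not reported here.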

Additional observations from a re-analysis of the deposited data

Results flagged for a closer look

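The *Eed*-null effect on *Nkx2-3* RNA differed between the organs by a test of the difference itself, with a log2 value of 4.57 for the stomach minus the intestine (standard error 0.789, adjusted p = 0.122 from edgeR, called at an adjusted p under 0.2). Both *Eed*-null stomach libraries lay above both control stomach libraries, and both *Eed*-null intestine libraries lay below both control intestine libraries. The difference was 3.66 to 6.97 when each library was left out, and it missed the threshold without *Eed*-null stomach replicate 2 (adjusted p = 0.35), control intestine replicate 1 (adjusted p = 0.35) or control intestine replicate 2 (adjusted p = 0.43).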

How the results depend on the processing

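The number of members was 4241 with peaks of -log10 q of at least 2, of which 2044 overlapped members of the full lists, and 2582 at 5. The share at a start rose to 5.258% and 8.327% at these limits and was 13.12% within 5000 bp. The CTCF share of members was above that of all merged windows in the full lists (5.326% and 4.531%) and below it at 5 (6.468% and 6.939%). The cause of these and the following differences was not tested.

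In the *Eed*-null stomach the 5 higher genes became 8 with DESeq2, 10 with no filter and 1 with the spike-in factor. Over all genes these settings called 5.562%, 4.219% and 1.615% higher. Higher were 27 of 112 tested (24.11%) with -log10 q of at least 5, 18 of 223 (8.072%) within 5000 bp and 92 of 1326 (6.938%) by nearest gene, where 4.84% of all genes were. The 0 lower became 3, 1 and 18 under the last 3 (2.679%, 0.4484% and 1.357%, where 0.808% of all genes were). Leaving out a library moved the number of higher genes in either direction. Over all genes fewer were called higher without any stomach library. For the control organs, higher genes numbered 12 with no filter, where 1.419% of all genes were. They numbered 14 at 5 (12.5%), 13 within 5000 bp (5.83%) and 59 by nearest gene (4.449%), where 1.68% of all genes were. Lower genes numbered 8, 7 and 58 under the last 3 (7.143%, 3.139% and 4.374%, where 3.39% of all genes were). Leaving out any control library gave fewer calls in both directions, among these genes and over all genes. In the *Eed*-null intestine, higher genes numbered 6 with DESeq2, 6 with no filter and 0 with the spike-in factor, where 3.872%, 2.894% and 1.048% of all genes were. They numbered 10 at 5 (8.929%), 7 within 5000 bp (3.139%) and 38 by nearest gene (2.866%), where 2.38% of all genes were. Lower genes numbered 1 at 5 (0.8929%, where 0.228% of all genes were). Leaving out any library gave fewer higher genes here and over all genes. The difference of the effects gave 8, 1 and 6 larger at 5, within 5000 bp and by nearest gene (7.143%, 0.4484% and 0.4525%, where 0.271% of all genes were). It gave 1 and 3 smaller at 5 and by nearest gene (0.8929% and 0.2262%, where 0.191% of all genes were). In the adult, higher genes numbered 43 within 5000 bp (22.63%) and 195 by nearest gene (16.16%), where 12.3% of all genes were. Lower genes numbered 8 with no filter, where 5.953% of all genes were. They numbered 9 at 5 (9.375%), 14 within 5000 bp (7.368%) and 124 by nearest gene (10.27%), where 7.23% of all genes were. Leaving out a library moved both numbers in either direction, while over all genes fewer were called higher.

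With the replicate number as a block, higher genes numbered 9 in the *Eed*-null stomach and 5 in the *Eed*-null intestine. Over all genes the block called 6.314% and 3.545% higher. Nothing in the labels says that a number marks a shared embryo, and deviations of same-numbered libraries correlated at 0.138 to 0.748. No called value of a named gene changed direction in any alternative, and 14 values without a call changed sign in at least 1. *Shh*, not called in the *Eed*-null stomach, was called with DESeq2 (adjusted p = 0.047), with no filter (adjusted p = 0.011) and with the block (adjusted p = 0.034). The *Eed*-null stomach calls of *Anxa1*, *Hoxc12*, *Hoxb1* and *Rspo1* were lost with the spike-in factor and without *Eed*-null stomach replicate 2 (log2 0.90, 7.75, -1.93 and -0.98). They were also lost without control stomach replicate 1 for *Anxa1*, *Hoxc12* and *Hoxb1*, control stomach replicate 2 for *Hoxc12*, *Hoxb1* and *Rspo1*, *Eed*-null stomach replicate 1 for *Hoxb1* and *Rspo1*, and control intestine replicate 2 for *Anxa1*. Peak lists of pooled samples allow no replicate check of any region.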
